A study of Mus musculus with 4 samples.

Results

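The ABC family holds the proteins that carry the ATP-binding cassette, a domain that binds and splits ATP, sorted in mice into subfamilies A to G. Its genes were taken by name: every gene symbol made of Abc, a letter from a to g and a number, with or without a closing letter, and with no joint name. This gave 50 of the 22761 gene symbols found in all 4 tables, and 31 of the 50 were expressed highly enough to be tested. RNA came from embryonic mouse kidneys taken whole, at E18.5 and of mixed strain. The 2 mutant libraries were made from Hnf4a c/c ; Six2GFPcre kidneys, in which both alleles of Hnf4a are conditional, and the 2 control libraries from Hnf4a c/+ ; Six2GFPcre kidneys, in which 1 allele is. Six2GFPcre is a Cre recombinase made in nephron progenitors and inherited by the podocytes and tubule cells that descend from them. Both groups carry it, and the control kidneys, heterozygous for the conditional allele, can therefore lack 1 Hnf4a copy across the lineage. Stroma, vessels, blood cells and collecting duct do not come from that lineage and keep the gene. Hnf4a encodes a nuclear receptor, and the comparison asks which transcripts change when the nephron lineage lacks it.

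Most ABC proteins move a substrate across a membrane at the cost of ATP. The pumps of subfamilies B, C and G in the brush border of the proximal tubule push conjugated drugs, urate and other organic anions into the urine, after carriers at the basolateral side have taken such compounds up from blood. Other members move cholesterol and phospholipid, serve the peroxisome, the lysosome or the mitochondrion, or act in translation without spanning a membrane.

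Values are FPKM, fragments scaled to transcript length and library size, so levels of different genes can be set side by side. With 2 libraries in each group and no animals named in the labels, the spread behind each p-value is that between libraries and may be technical. Between 13552 and 13646 named genes reached 1 FPKM in each library. Depth is unknown, because read totals are not given. Hnf4a was at 87.1 and 78.5 FPKM in mutant libraries and at 89.3 and 84.6 FPKM in control libraries. That value covers the whole gene and does not check the labels, since the sources used here do not say which exons are removed. Of the 10 proximal tubule markers, 10 were lower in the mutant libraries without overlap, beside 17.1% of all genes tested. With limma, 9 were lower at an unadjusted p under 0.05, beside 4.57% of all genes tested. The markers summed to 209 and 206 FPKM in mutant libraries and 490 and 400 FPKM in control libraries, with no marker at 0. Lrp2, which encodes the uptake receptor megalin, was the clearest of these, at 14.6 and 17.0 FPKM in mutant libraries and 48.5 and 44.9 FPKM in control libraries. In whole kidneys, fewer cells of a type and less RNA per cell cannot be told apart.

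Abcc2 and Abcg2 are the drug pumps with the lowest p-values, and neither passed the adjusted threshold. The 250 bases before their starts are shown here with those of a relative of each, taken from RefSeq on build GRCm38.p6. They are Abcc2 (chr19:43782058-43782307, plus strand), the 3 starts of Abcg2 (chr6:58584283-58584532, chr6:58596422-58596671 and chr6:58640296-58640545, plus strand), the 2 starts of Abcc4 (chr14:118706220-118706469 and chr14:118676932-118677181, minus strand) and Abcg3, a relative of Abcg2 found in rodents (chr5:104982718-104982967, minus strand). Capitals mark the motifs found.
Abcc2: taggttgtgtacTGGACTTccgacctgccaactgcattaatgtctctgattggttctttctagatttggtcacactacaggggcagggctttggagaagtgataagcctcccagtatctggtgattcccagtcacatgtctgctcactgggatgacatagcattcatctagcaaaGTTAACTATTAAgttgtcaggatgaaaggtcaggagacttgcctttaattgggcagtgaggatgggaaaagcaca
Abcg2 start 1: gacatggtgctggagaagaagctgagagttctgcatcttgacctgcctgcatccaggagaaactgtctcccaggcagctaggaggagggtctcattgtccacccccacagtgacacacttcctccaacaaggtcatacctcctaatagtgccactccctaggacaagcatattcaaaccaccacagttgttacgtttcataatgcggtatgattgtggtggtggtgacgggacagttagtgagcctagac
Abcg2 start 2: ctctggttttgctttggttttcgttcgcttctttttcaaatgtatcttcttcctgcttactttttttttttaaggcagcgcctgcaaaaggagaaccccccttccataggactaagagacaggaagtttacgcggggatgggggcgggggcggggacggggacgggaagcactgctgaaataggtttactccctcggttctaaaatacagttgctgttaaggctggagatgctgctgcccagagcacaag
Abcg2 start 3: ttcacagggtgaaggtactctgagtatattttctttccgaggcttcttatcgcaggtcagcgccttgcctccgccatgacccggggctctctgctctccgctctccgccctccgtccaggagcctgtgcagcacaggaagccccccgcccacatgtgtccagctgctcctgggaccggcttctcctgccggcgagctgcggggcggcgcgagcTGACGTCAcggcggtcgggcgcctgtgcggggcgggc
Abcc4 start 1: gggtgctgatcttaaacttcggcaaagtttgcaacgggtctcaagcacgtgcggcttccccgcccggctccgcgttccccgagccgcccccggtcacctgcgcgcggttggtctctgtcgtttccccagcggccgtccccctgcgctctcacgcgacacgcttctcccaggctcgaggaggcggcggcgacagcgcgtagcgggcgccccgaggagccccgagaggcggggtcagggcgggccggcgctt
Abcc4 start 2: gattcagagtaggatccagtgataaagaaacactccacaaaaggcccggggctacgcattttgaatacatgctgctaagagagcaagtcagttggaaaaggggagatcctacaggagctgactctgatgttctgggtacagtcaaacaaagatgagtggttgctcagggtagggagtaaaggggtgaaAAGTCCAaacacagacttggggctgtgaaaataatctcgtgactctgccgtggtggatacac
Abcg3: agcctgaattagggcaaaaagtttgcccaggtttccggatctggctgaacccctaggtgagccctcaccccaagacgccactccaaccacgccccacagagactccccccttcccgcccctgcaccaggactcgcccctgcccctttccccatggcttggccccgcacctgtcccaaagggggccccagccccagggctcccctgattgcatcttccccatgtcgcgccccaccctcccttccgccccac

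The 9-base element CAAAGTCCA, which Hnf4a is known to bind, was searched on both strands and stood in 0 of the 45 member sequences of this kind, against 0.384% of 32851 sequences of all genes. Its 7-base end AAGTCCA, which overlaps it and was chosen after the sequences were read, stood in the sequences of Abcc2 (positions -238 to -232 from the start, minus strand), Abcc4 (start 2, positions -62 to -56) and Abcb11, and in 3.36% of all sequences. A loosened form of the element of HNF1, a homeodomain factor of the tubule, with the sixth base left free and also chosen after reading, stood in Abcc2 (positions -75 to -64) and in no other member, and in 0.143% of all sequences. The stricter HNF1 element stood in 0 member sequences and 0.0609% of all. The direct repeat with 1 base between its parts, which nuclear receptors bind, stood in 0 member sequences and 0.0335% of all, and the cAMP response element TGACGTCA in Abcg2 (start 3, positions -37 to -30) and Abce1, and in 1.55% of all. A match is a description of letters, not a binding site. Abcc2 had 1 CpG and 45.6% G or C in its 250 bases. The medians were 12 CpGs and 56.4% over the 45 member sequences, and 6 CpGs and 52.4% over all sequences. Of the member sequences, 1, that of Abcb1a, had fewer CpGs than Abcc2, and 4 had a lower share of G or C. RefSeq sequences were found for 38 of the 50 members.

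Across the family, levels spanned from over 50 FPKM to 0. By their mean over the 4 libraries, 7 members were at 30 FPKM or more, 11 between 10 and 30, 12 between 1 and 10 and 20 below 1. The highest were Abcf1, Abcf2 and Abce1, which work in translation, followed by the drug pump Abcg2. The 50 genes summed to 473 and 484 FPKM in mutant libraries and to 527 and 518 FPKM in control libraries. The 4 genes of subfamilies E and F made up 35.9% and 34.3% of that sum in mutant libraries and 30.2% and 33.9% in control libraries.

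**Figure D1:**
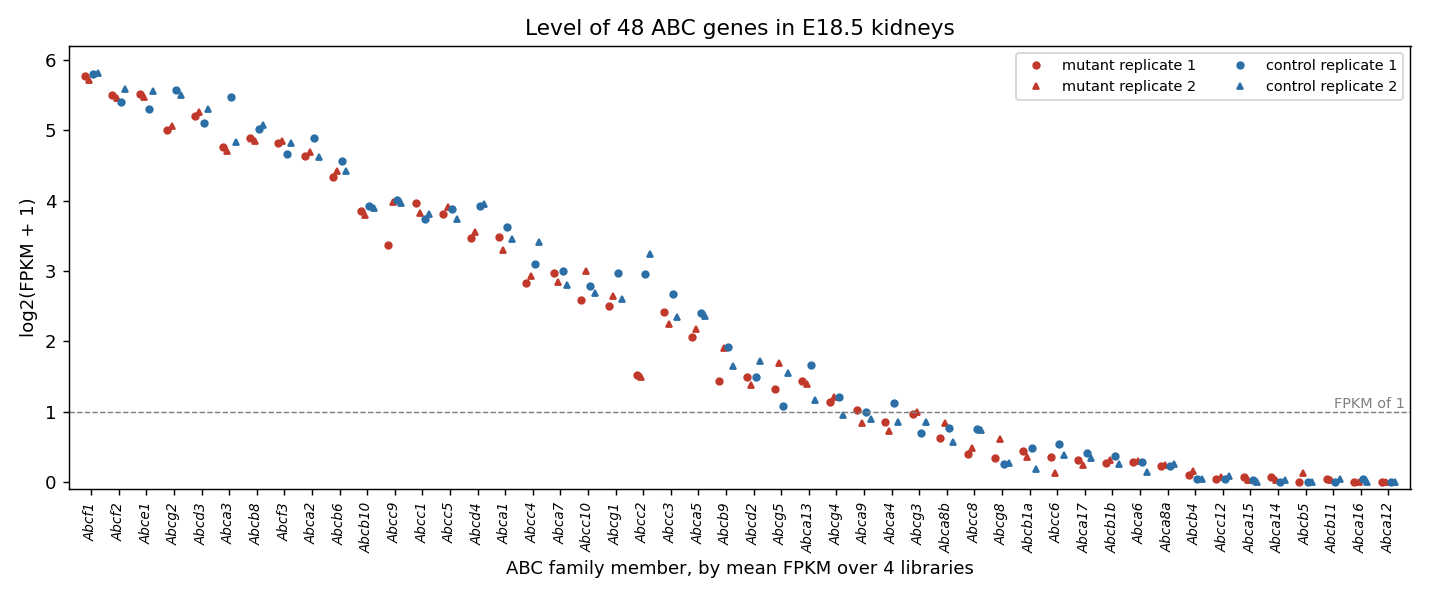
Level of 48 ABC genes on the log2(FPKM + 1) scale, ordered by mean FPKM, with mutant libraries in red and control libraries in blue. Abcc2 is the gene whose mutant points stand farthest below its control points, at 1.87 and 1.82 FPKM against 6.75 and 8.43 FPKM.

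Of the 31 tested members, 0 passed an adjusted p under 0.05 with limma and Benjamini-Hochberg adjustment over all 13287 genes tested, where 0.113% of genes passed as lower and 0.0452% as higher. At an unadjusted p under 0.05, 3 members were lower and 0 higher, which is 9.68% of the members lower beside 4.57% of all genes tested, and 0 members higher beside 2.67%. The 3 were Abcc2, Abcg2 and Abcd4. Both mutant libraries lay below both control libraries for 10 members, 32.3% of the 31 beside 17.1% of all genes, and above them for 2 members, 6.45% beside 22.7%. The log2 change was negative in 20 members and positive in 11, with a median of -0.08, whereas 44.7% of all genes tested had a negative change and their median was 0.02. Of the 31, 29 reached an FPKM of 1 in all 4 libraries and 0 passed the filter through 1 group alone.

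**Figure D2:**
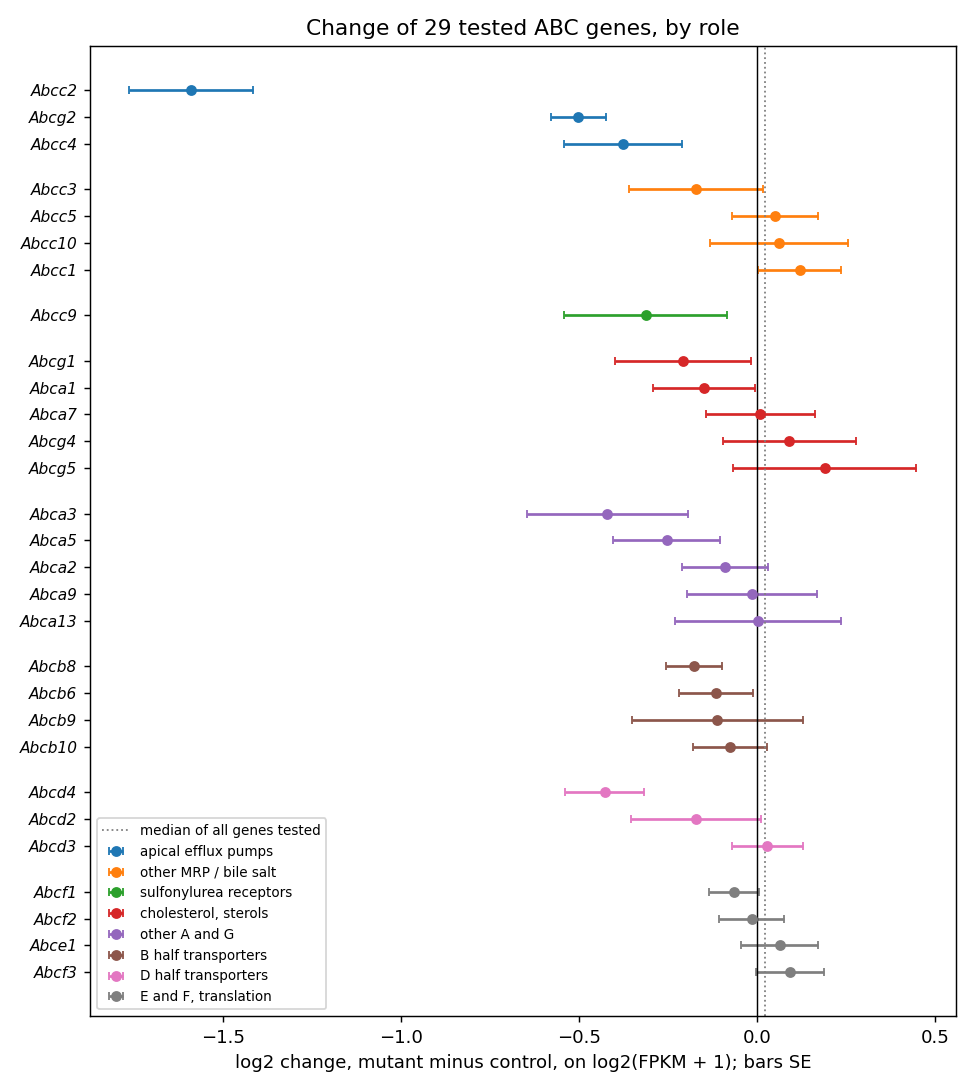
Log2 change of 29 tested ABC genes, mutant minus control, on log2(FPKM + 1), with bars for the standard error and colours for the role. The 3 apical pumps stand at the top, with Abcc2 at -1.59, Abcg2 at -0.50 and Abcc4 at -0.38.

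The apical efflux pumps held the members with the lowest p-values. Abcc2 encodes MRP2, the brush border pump that exports glucuronide, glutathione and sulfate conjugates. It was at 1.87 and 1.82 FPKM in the mutant libraries, against 6.75 and 8.43 FPKM in the control libraries. The groups were far apart and the mutant libraries close to each other. The mean was 1.84 ± 0.0357 FPKM in mutant and 7.59 ± 1.19 FPKM in control libraries (SD, n = 2 each), so mutant kidneys held 24.3% of the control level. The log2 change was -1.59 (SE 0.17), with an unadjusted p of 0.000497 and a limma adjusted p of 0.096. It thus missed the threshold, and it lay between -1.45 and -1.73 with any 1 library left out. Each table gives an interval for every FPKM, computed by the authors' software within 1 library. For Abcc2 its bounds were 1.29 to 3.11 and 1.42 to 2.20 FPKM in mutant libraries and 5.90 to 7.60 and 6.79 to 10.1 FPKM in control libraries. Abcc2 was the single tested member, 1 of 31, whose intervals in both mutant libraries lay below those in both control libraries, as they did in 2.36% of all genes tested. Intervals were higher without overlap in 0 of 31 members and in 0.497% of all genes tested. The locus was 43856798 to 43912708 on mm9 chromosome 19 in 3 libraries and ended at 43912848 in control replicate 2.

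Abcg2 encodes BCRP, the apical pump for urate and sulfate conjugates, and had the highest FPKM of the family's membrane transporters in the control kidneys. It was at 31.3 and 32.3 FPKM in mutant libraries and at 46.8 and 44.2 FPKM in control libraries. The values within each group were close and the groups did not overlap. The mutant mean was 69.9% of the control mean, with a log2 change of -0.50 (SE 0.08), an unadjusted p of 0.0021 and a limma adjusted p of 0.19. The deposited interval of Abcg2 was wide upward in 2 libraries, reaching 91.0 FPKM in mutant replicate 2 and 477 FPKM in control replicate 2. Its locus on mm9 chromosome 6 began at 58545960 in mutant replicate 1, 58546609 in control replicate 1 and 58546666 in the other libraries.

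Abcc4 encodes MRP4, an apical pump for cyclic nucleotides, urate and other organic anions. It was at 6.09 and 6.65 FPKM in mutant libraries and at 7.62 and 9.61 FPKM in control libraries. The groups did not overlap, but the control libraries differed from each other by more than the gap between the groups. The mutant mean was 74.0% of the control mean, with a log2 change of -0.38 (SE 0.17) and a limma adjusted p of 0.75. The unadjusted limma p was 0.080. The log2 change of Abcc4 was -0.53 without control replicate 1 and -0.23 without control replicate 2. It was -0.32 without mutant replicate 1 and -0.43 without mutant replicate 2. Abcb1a and Abcb1b encode the P-glycoproteins, pumps for lipophilic drugs that are close paralogs, and how reads shared by both were counted is not stated. Abcb1a was at 0.357 and 0.284 FPKM in mutant libraries and at 0.398 and 0.140 FPKM in control libraries, and Abcb1b at 0.214 and 0.242 FPKM against 0.295 and 0.194 FPKM. Both overlapped between groups and were too low to be tested.

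**Figure D3:**
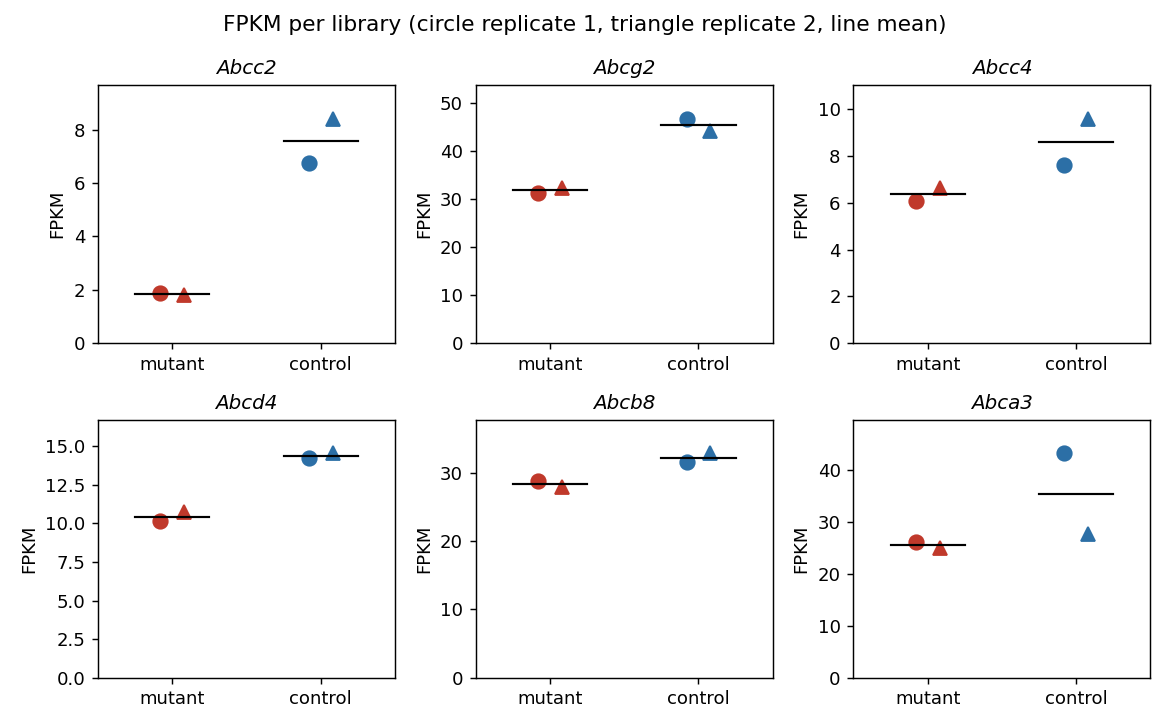
FPKM in each library of Abcc2, Abcg2, Abcc4, Abcd4, Abcb8 and Abca3, with mutant on the left, control on the right and a line at each mean. All 6 belong to the 10 tested members that were lower without overlap, as were 17.1% of all genes tested. Their lack of overlap here follows from which genes are drawn. For Abca3 the control libraries stand apart from each other at 43.2 and 27.6 FPKM.

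The pumps were compared with each other and with megalin. The ratio of Abcc2 to Abcc4 FPKM within a library was 0.306 and 0.273 in mutant libraries and 0.886 and 0.877 in control libraries. That of Abcc2 to Abcg2 was 0.0597 and 0.0562 against 0.144 and 0.191. With 2 libraries in each group, an exact two-sided permutation test cannot give a p below 0.333, which was the value for both ratios. Set against megalin within each library, Abcc2 had a ratio to Lrp2 of 0.128 and 0.107 in mutant libraries and of 0.139 and 0.188 in control libraries. The ratio of Abcg2 to Lrp2 was 2.14 and 1.90 in mutant libraries against 0.965 and 0.982 in control libraries, and that of Abcc4 to Lrp2 was 0.417 and 0.392 against 0.157 and 0.214. Both mutant libraries lay below both control libraries in the Abcc2 to Lrp2 ratio and above them in the other pumps' ratios, and each of these also had an exact permutation p of 0.333. The part of the proximal tubule markers in the differences of the pumps was not tested beyond these ratios, which used Lrp2 as the single marker. The mutant means of the 10 proximal tubule markers ranged from 25.1% to 63.8% of their control means. Lrp2 stood at 33.8% and Abcc2 at 24.3%, so a ratio to Lrp2 does not stand for a ratio to every marker.

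Carriers that take organic ions up from blood, and other routes by which they leave or re-enter the tubule cell, formed a list of their own. In this list, which was drawn from textbook knowledge with earlier results of these data known, 0 of 9 tested genes passed over all genes. With limma, 7 were lower and 0 higher at an unadjusted p under 0.05, beside 4.57% and 2.67% of all genes tested. The list's median log2 change was -1.19. Slc22a12, the urate exchanger URAT1, was at 17.1 and 13.7 FPKM in mutant libraries against 36.4 and 29.2 FPKM in control libraries, a log2 change of -1.04 (SE 0.17). Slco4c1, a basolateral carrier of digoxin that was chosen after its values were seen, was at 4.82 and 9.20 FPKM in mutant and 6.68 and 4.21 FPKM in control libraries, with overlapping groups.

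Among 6 proteins listed as apical scaffolds, a class that tethers pumps and carriers at the membrane, 0 passed over all genes, with a median of -0.13. Whether each of the 6 does so in the brush border was not tested. Of the 6, 3 were lower and 0 higher at an unadjusted limma p under 0.05, beside 4.57% and 2.67% of all genes tested. Pdzk1, whose PDZ domains bind apical carriers, was at 68.6 and 68.4 FPKM in mutant libraries and 137 and 126 FPKM in control libraries, with a log2 change of -0.93 (SE 0.07) and a limma adjusted p of 0.057. Slc9a3r1, the related scaffold NHERF1, was at 54.4 and 55.0 FPKM against 83.4 and 78.9 FPKM. Rdx encodes radixin, which anchors MRP2 in the mouse liver, and was chosen after its values were seen. It was at 64.0 and 68.0 FPKM in mutant and 62.0 and 66.6 FPKM in control libraries, with overlapping groups. A list of enzymes that make or cleave conjugates of the kind MRP2 exports held 8 tested genes, with a median of -0.51. Of these 8, 0 passed over all genes. At an unadjusted limma p under 0.05, 4 were lower and 0 higher, beside the same 4.57% and 2.67% of all genes tested. Ggt1, which cleaves glutathione conjugates in the brush border, was at 89.8 and 79.7 FPKM in mutant libraries against 132 and 123 FPKM in control libraries. Gsta2, a glutathione transferase, was at 41.2 and 36.3 FPKM in mutant and 56.0 and 70.5 FPKM in control libraries.

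**Figure D4:**
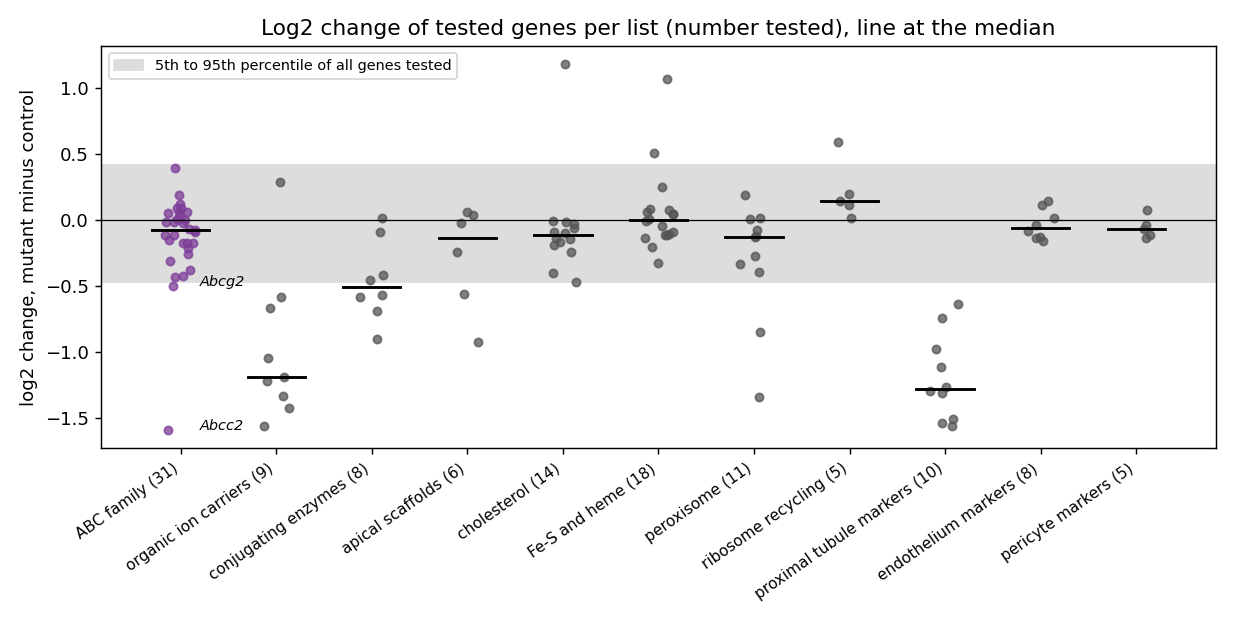
Log2 change, mutant minus control, of the tested genes in each list, with a line at the median and a grey band from the 5th to the 95th percentile of all genes tested (-0.47 to 0.42). The ABC family has its median at -0.08 and 2 labelled genes below the band, whereas organic ion carriers and proximal tubule markers have medians of -1.19 and -1.28. The lists of organic ion carriers and proximal tubule markers share a gene, which is drawn in both.

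None of the 4 tested members among the other multidrug resistance proteins had an unadjusted p under 0.05. Abcc1, the basolateral pump MRP1, was at 14.6 and 13.2 FPKM in mutant libraries and at 12.3 and 13.1 FPKM in control libraries. The groups touched without overlapping, with a log2 change of 0.12 (SE 0.12) and a limma adjusted p of 0.80. Abcc5, or MRP5, an exporter of cyclic nucleotides in many tissues, was at 13.0 and 14.0 FPKM in mutant and 13.7 and 12.3 FPKM in control libraries, with overlapping groups. Abcc3 (MRP3) and Abcc10 (MRP7) were the other tested members of this class, with log2 changes of -0.17 and 0.06. The 9 genes of the class summed to 37.4 and 38.4 FPKM in mutant libraries and to 37.8 and 35.4 FPKM in control libraries, while the 5 apical pumps summed to 39.8 and 41.3 FPKM in mutant and to 61.8 and 62.5 FPKM in control libraries. The bile pumps of the liver, Abcb11 and Abcb4, were below 0.13 FPKM in every library.

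The sulfonylurea receptors gate potassium channels and transport no drug. Abcc9, or SUR2, which is made in pericytes and smooth muscle, was at 9.39 and 14.7 FPKM in mutant libraries and at 15.2 and 14.6 FPKM in control libraries. The low value came from mutant replicate 1 alone, and the groups overlapped. The log2 change was -0.31 (SE 0.23) and became -0.01 without mutant replicate 1. Kcnj8, the channel subunit that pairs with SUR2, was at 21.0 and 27.7 FPKM against 24.2 and 29.2 FPKM. Kcnj11, the subunit that pairs with SUR1, was at 0.721 and 0.688 FPKM in mutant libraries against 1.17 and 1.29 FPKM in control libraries, without overlap and with a limma adjusted p of 0.75. The 5 pericyte and smooth muscle markers analysed, Kcnj8 among them, summed to 208 and 180 FPKM in mutant libraries and to 199 and 202 FPKM in control libraries. At an unadjusted limma p under 0.05 there were 0 of these 5. Abcc8, or SUR1, was at 0.316 and 0.397 FPKM in mutant libraries and 0.686 and 0.675 FPKM in control libraries, too low to be tested. With no filter on low values its unadjusted limma p was 0.0245 and its adjusted p 0.604. The deposited intervals of Abcc8 overlapped, reaching up to 0.570 FPKM in mutant replicate 2 and down to 0.404 FPKM in control replicate 1.

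Transporters of cholesterol and sterols overlapped between the groups in all 5 tested genes, as did 7994 of all 13287 genes tested. Abca1, which loads cholesterol and phospholipid onto apolipoprotein A-I, was at 10.2 and 8.88 FPKM in mutant libraries and at 11.4 and 10.02 FPKM in control libraries, with a log2 change of -0.15 (SE 0.14). Abca7, a relative that moves phospholipid, was at 6.85 and 6.16 FPKM against 6.995 and 5.95 FPKM, with a log2 change of 0.01 (SE 0.15) whose sign turned in 3 of 14 alternative settings. Abcg5 and Abcg8, which together form the sterol pump, overlap at their ends on mm9 chromosome 17, so their reads cannot be assigned with certainty. Of 14 tested genes of cholesterol efflux, sensing and synthesis, 0 passed over all genes. With limma, 3 were lower and 0 higher at an unadjusted p under 0.05, beside 4.57% and 2.67% of all genes tested. Sqle, an enzyme of cholesterol synthesis, was at 27.3 and 30.05 FPKM in mutant and 38.8 and 41.2 FPKM in control libraries.

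In the rest of subfamily A, Abca3 stood highest. It packs phospholipid into lamellar bodies of the lung. It was at 26.1 and 25.1 FPKM in mutant libraries and at 43.2 and 27.6 FPKM in control libraries, and the groups did not overlap. The difference rests on control replicate 1: the log2 change was -0.42 (SE 0.23), -0.11 without that library and -0.73 without control replicate 2. The Abca3 locus overlaps D330041H03Rik by 724 bases. This transcript was listed at 0 in both mutant libraries, at 0 in control replicate 1 and at 16.1 FPKM in control replicate 2, the control library with the lower Abca3 value. Its part in the Abca3 values was not tested. Abca2, a transporter of endosomes and lysosomes best known in brain, was at 23.9 and 24.9 FPKM in mutant and 28.6 and 23.7 FPKM in control libraries, with overlapping groups. Abca5 was at 3.20 and 3.52 FPKM in mutant libraries against 4.27 and 4.12 FPKM in control libraries, without overlap, with a log2 change of -0.25 (SE 0.15) and a limma adjusted p of 0.76; it was chosen after its values were seen.

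The subfamily B proteins of mitochondria and lysosomes gave 0 of 5 members with an unadjusted p under 0.05. Abcb8, of the inner mitochondrial membrane, was at 28.8 and 27.9 FPKM in mutant libraries and at 31.5 and 32.8 FPKM in control libraries. The groups did not overlap, and the mutant mean was 88.1% of the control mean, with a log2 change of -0.18 (SE 0.08) and a limma adjusted p of 0.76. Abcb6, a porphyrin transporter, was at 19.2 and 20.4 FPKM in mutant libraries and at 22.7 and 20.4 FPKM in control libraries, where the second values of the 2 groups nearly met. Of 18 genes of iron-sulfur cluster and heme synthesis, 0 passed over all genes, with a median of 0.00. With limma, 1 was lower and 0 higher at an unadjusted p under 0.05, beside 4.57% and 2.67% of all genes tested. That 1 was Cpox, a heme synthesis enzyme, at 29.5 and 28.5 FPKM in mutant and 33.8 and 33.4 FPKM in control libraries. Isca2, an iron-sulfur assembly factor, was at 49.3 and 149 FPKM in mutant libraries against 36.2 and 45.1 FPKM in control libraries, with mutant replicate 2 the highest of the 4 libraries.

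Subfamily D holds 1 lysosomal and 3 peroxisomal transporters, and whether they differ in change was not tested. Abcd4, which releases vitamin B12 from the lysosome, was at 10.1 and 10.7 FPKM in mutant libraries and at 14.2 and 14.6 FPKM in control libraries. The libraries of each group were close and the groups did not overlap. The mutant mean was 72.6% of the control mean, with a log2 change of -0.43 (SE 0.11), an unadjusted p of 0.015 and a limma adjusted p of 0.46. Without mutant replicate 1 or without mutant replicate 2 its unadjusted p was 0.101 and 0.065. The deposited intervals of Abcd4 overlapped, reaching up to 18.8 FPKM in mutant replicate 1 and down to 9.49 FPKM in control replicate 1. Abcd3, or PMP70, the major membrane protein of peroxisomes, was at 35.8 and 37.2 FPKM in mutant and 33.3 and 38.4 FPKM in control libraries, with a log2 change of 0.03 (SE 0.10). Abcd2, a peroxisomal fatty acid transporter, had a log2 change of -0.17, with overlapping groups. Other genes of peroxisome import and fatty acids were lower at an unadjusted limma p under 0.05 in 5 of 11 cases and higher in 0. Among all genes tested these shares were 4.57% and 2.67%. Of the 11, 0 passed over all genes. Slc27a2, a fatty acid carrier and acyl-CoA synthetase, was at 17.4 and 24.0 FPKM in mutant libraries and 59.6 and 47.6 FPKM in control libraries, and Ehhadh, an enzyme of peroxisomal beta-oxidation, at 4.96 and 5.16 FPKM against 10.2 and 9.53 FPKM.

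The soluble proteins of subfamilies E and F summed to 170.0 and 166 FPKM in mutant libraries and to 159 and 176 FPKM in control libraries. Abcf1, which acts in translation initiation, was at 53.8 and 51.5 FPKM in mutant libraries and at 54.7 and 55.5 FPKM in control libraries. The groups did not overlap, with a log2 change of -0.07 (SE 0.07). Abcf2 was at 44.2 and 43.1 FPKM in mutant libraries and at 41.4 and 47.0 FPKM in control libraries, so its mutant values lay inside the control range. Abce1, which recycles ribosomes, and Abcf3 had log2 changes of 0.06 and 0.09 with overlapping groups. Of 5 genes of ribosome recycling and initiation, 0 passed over all genes and 0 reached an unadjusted p under 0.05 with limma, in either direction. Hbs1l, a ribosome rescue factor, was at 42.8 and 42.6 FPKM in mutant libraries against 37.0 and 40.3 FPKM in control libraries, and Eif2s1, a subunit of initiation factor eIF2, at 58.5 and 36.0 FPKM against 26.1 and 34.8 FPKM.

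Of the 19 members too low to be tested, 14 were below 0.5 FPKM in every library, and the highest value was 1.18 FPKM, for Abca4 in control replicate 1. Abca12 was listed at 0 in all 4 libraries, and 5 further genes were at 0 in at least 1 of them. In 4 of the 19 both mutant values lay below both control values, and in 4 above. Among all 3865 genes that were above 0 in some library and did not pass the filter, these shares were 10.4% lower and 16.1% higher, and nothing is read from the members' counts. The low members include most of the family's gene clusters in the mouse genome. On mm9 chromosome 5, Abcb1a (8660092 to 8748570), Abcb1b (8798147 to 8866314) and Abcb4 (8893721 to 8959226) stand in a row, and all 3 were below 0.4 FPKM. On chromosome 7, Abca14, Abca15 and Abca16 follow each other between 127347478 and 127688327, and none reached 0.06 FPKM. On chromosome 11, Abca8b, Abca8a, Abca9, Abca6 and Abca5 lie between 109794720 and 110199030. Of these, Abca5 averaged 3.78 FPKM over the 4 libraries and the others from 0.183 (Abca8a) to 0.924 (Abca9). On chromosome 17, Abca17 and Abca3 are 4770 bases apart and averaged 0.260 and 30.5 FPKM over the 4 libraries.

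The 3 ABC genes whose symbols fall outside the naming pattern had 0 of 3 members at an unadjusted p under 0.05. Cftr, the chloride channel mutated in cystic fibrosis, was at 3.24 and 2.30 FPKM in mutant libraries and at 3.49 and 3.63 FPKM in control libraries, without overlap and with a limma adjusted p of 0.76. Tap1 and Tap2, which load peptides for antigen presentation, had log2 changes of -0.08 and 0.02. Markers of other cell types were set beside these values. Endothelial markers, the genes of a cell type in which P-glycoprotein and BCRP are known from brain, summed to 478 and 485 FPKM in mutant libraries and 492 and 485 FPKM in control libraries, with 0 of 8 at an unadjusted p under 0.05. Macrophage markers summed to 105 and 124 FPKM in mutant and 118 and 106 FPKM in control libraries, with 0 of 7. Podocyte, nephron progenitor, stromal, and distal tubule and collecting duct markers also had 0 genes at an unadjusted p under 0.05, and the loop of Henle list had 1 of 5, higher. Erythroid markers had 1 lower and 1 higher of 4, where 4.57% of all genes tested were lower and 2.67% higher. Liver markers summed to 37.7 and 92.4 FPKM in mutant libraries against 41.4 and 50.6 FPKM in control libraries, adrenal markers to 1.33 FPKM or less, and those of brain and muscle to 6.74 FPKM or less.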

How the data were processed

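Messenger RNA of whole kidneys, selected by its poly(A) tail, was made into libraries with a ThruPLEX DNA-seq kit, per the labels' protocols, where strand is not described. The FPKM values and their intervals were computed by the authors, with 1 deposited table per library. TopHat2 2.0.11, Bowtie 1.0.0, SAMtools 0.1.19, Cufflinks 2.1.1 and build mm9 are named, per the submitters' processing notes. The sources used here do not name an annotation. Locus boundaries of 15 of the 50 members moved between tables. Intervals were symmetric in every row with a lower bound above 0 in the table of control replicate 1, and asymmetric in 45.4% to 47.4% of such rows in the others. Among low values, mutant replicate 2 was most often 0.20 (log2) below mutant replicate 1 and below both control libraries. Mutant replicate 1 was most often level with control replicate 1 and 0.05 above control replicate 2.

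Rows were joined by symbol. Genes with any row not marked OK (99) were left out, and rows of 1 symbol were summed (158 genes, 0 of them members). Testing used limma 3.58.1 (R 4.3.3; lmFit, eBayes with a trend, group as the single term) on log2(FPKM + 1), a scale that understates changes of low genes. It took genes reaching 1 FPKM in 2 libraries or more, adjusted p-values by Benjamini-Hochberg over all of them, and set the threshold at 0.05. The fit was also run on simulated data with normal noise whose spread followed the mean level alone. Those data held no single-library outliers, so that run cannot show how the fit handles them. Changes are mutant minus control. Values in every library are given for members at an unadjusted p under 0.05, for Abcc2, Abcc4, Abcg2 and Abcb1a, for the 2 highest members of each role, and for up to 2 genes of lowest p in each pathway list; other genes with values were chosen after these were seen. The members, roles and lists were chosen with earlier results of these data known. The 14 alternatives changed the pseudocount, filter, scaling, variance trend, row handling and block, and left out each library. Some genes of the family and of the lists enter the counts, sums and medians but are not reported here by name.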

Additional observations from a re-analysis of the deposited data

How the results depend on the processing

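No ABC member passed the adjusted threshold in any of the 14 alternative settings. Abcc2 and Abcg2 had an unadjusted p under 0.05 in all 14 and Abcd4 in 12. Abcc2 ranged from -1.98 (pseudocount of 0.1) to -0.88 (pseudocount of 5) in log2 change, with limma adjusted p from 0.0805 to 0.296. The replicate number shared by the groups was not used as a pairing, since 2 pairs cannot show one (correlation of deviations 0.146); with the replicate block the same 3 members were lower and 0 higher at an unadjusted p under 0.05, and the genes past the adjusted threshold were 3 lower and 3 higher, against 15 and 6 without it. Genes past the threshold as lower were 6 with no filter on low FPKM, 26 with a filter at 5 FPKM, 23 with libraries scaled to one median and 7 without a trend. Leaving out 1 library gave 0 to 9 genes lower and 0 to 5 higher, 2 to 4 ABC members lower and 0 to 1 higher at an unadjusted p under 0.05, and 14 to 20 members lower and 3 to 8 higher without overlap, beside 27.9% to 34.3% and 34.4% to 45.6% of all genes, since 1 library overlaps less often with 2. In these fits limma gave 0 genes past the threshold when either control library was dropped, while at an unadjusted p under 0.05 there were 739 lower and 290 higher without control replicate 1, and 1124 lower and 1169 higher without control replicate 2. With no filter, 14 of 49 members were lower and 6 higher without overlap, beside 15.6% and 21.2% of all genes. Direction turned, with no call involved, in 5 members. Abca7 was at -0.017 with quantile normalization. With 1 library left out, Abca7 ranged from -0.093 to 0.11, Abca2 from -0.22 to 0.039, Abcc5 from -0.024 to 0.123, Abcd3 from -0.072 to 0.129 and Abcf2 from -0.106 to 0.074 in log2 change; the cause was not tested. The highest row per symbol was taken in each library, since rows of 1 symbol do not match between tables. A group reduced to 1 library was assumed to vary like the other.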
